A study of Mus musculus with 24 samples.

Results

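The transcription factor CREB, its close relatives and the coactivators that they recruit were examined in the hippocampus of aged mice. The set was chosen by gene symbol and comprised 10 symbols: the factors Creb1, Crem, Atf1, Creb3 and Creb5, the CREB-regulated transcription coactivators Crtc1, Crtc2 and Crtc3, and the acetyltransferases Crebbp (CBP) and Ep300 (p300). Rows were found for 9 of the 10 symbols among the 49568 gene rows of the counts, and Creb5 was not analysed here. All 9 passed the filter on low counts, among 20187 genes that were tested.

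Hippocampal RNA was sequenced from individual male mice of 21 to 23 months in 4 groups of 6: wild type mice in standard housing (WTSH), wild type mice in enriched housing (WTEE), MSK1 kinase dead mice in standard housing (KDSH) and MSK1 kinase dead mice in enriched housing (KDEE). Mitogen- and stress-activated kinase 1 (MSK1, gene Rps6ka5) is a nuclear kinase for which CREB is a substrate. The kinase dead (KD) mice were homozygous for a point mutation in the endogenous gene that inactivates the kinase domain in every cell, so the MSK1 transcript was still made, and they were bred as a line apart from the WT line on the same C57-Bl/6J background. Enrichment, in large cages with objects and running wheels, began at 18 months. Samples numbered 1 to 8 were all from standard housing, 9 to 17 all from enriched housing, and 18 to 24 from both. Housing and sample number therefore cannot be fully told apart, and the labels do not say what the number stands for. The study set aside WTSH samples 4 and 7 and KDSH sample 6 for ribosomal RNA and a low correlation within their group, so 21 libraries of 4 (WTSH), 6 (WTEE), 5 (KDSH) and 6 (KDEE) mice entered the comparisons below and the other 3 are shown apart.

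CREB binds the cAMP response element (CRE) in the promoters of genes that neurons switch on with activity, and it becomes active when kinases such as MSK1, the calcium/calmodulin-dependent kinases and protein kinase A phosphorylate it. The phosphorylated factor recruits CBP or p300, which acetylate histones, and the CRTC proteins move into the nucleus after dephosphorylation and join the complex. This regulation acts mainly on the proteins, through phosphorylation and location, and counts of transcripts do not measure it. Bulk tissue was sequenced, so fewer cells of a type and less RNA per cell cannot be told apart.

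Levels are given as CPM, read counts scaled to the size of each library after TMM normalisation. The 21 libraries held between 27410239 and 71907130 counts on genes, and the member with the fewest counts, Atf1, had between 310 and 900 counts per library. The markers of hippocampal neurons (Slc17a7, Snap25, Prox1, Wfs1 and Gad1) were all counted in every group and summed to between 3432 and 4101 CPM over the 21 libraries. Summed choroid plexus markers reached 4278 CPM in WTSH, 5790 in WTEE and 9462 in KDEE, and were at most 112 CPM in all but 5 libraries (WTSH-19, WTEE-10, WTEE-13, KDEE-12 and KDEE-14). Some lists were higher in enriched housing: the median sum of oligodendrocyte markers was 4343 CPM in WTSH and 4210 in KDSH against 5444 in WTEE and 5762 in KDEE, that of astrocyte markers 851 and 764 against 961 and 933 CPM, and that of blood markers 61.9 and 45.5 against 156 and 110 CPM. Over the 21 libraries blood markers ranged from 33.5 to 349 CPM, pituitary markers from 0.812 to 236 CPM with the highest value in KDSH-8, astrocyte markers from 681 to 1150 CPM, microglia markers from 184 to 253 CPM, oligodendrocyte markers from 3946 to 6215 CPM and endothelial markers from 81.6 to 139 CPM. The part of these cell types in the members' levels was not tested.

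None of the 9 members differed between groups at the thresholds used, an adjusted p under 0.05 in edgeR's quasi-likelihood test with Benjamini-Hochberg adjustment and an absolute log2 fold change over 0.38. This held in all 7 comparisons: enrichment in WT mice, enrichment in KD mice, the mutation in standard housing, the mutation in enriched housing, the difference between both effects of enrichment (the interaction), and each factor averaged over the other. The background was as low, since 0% of the genes tested were called in 6 of the comparisons and 0.00495% (1 gene, Ighm, an immunoglobulin heavy chain gene outside the rule for named genes) in enriched against standard housing averaged over genotypes. In none of the 4 comparisons between a pair of groups did the libraries of a member separate without overlap, against 0.986% of genes tested for WTEE against WTSH, 1.84% for KDEE against KDSH, 0.644% for KDSH against WTSH and 0.624% for KDEE against WTEE. The results below are therefore levels, intervals and differences at an unadjusted p under 0.05, read beside the share of all genes at that p.

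**Figure D1:**
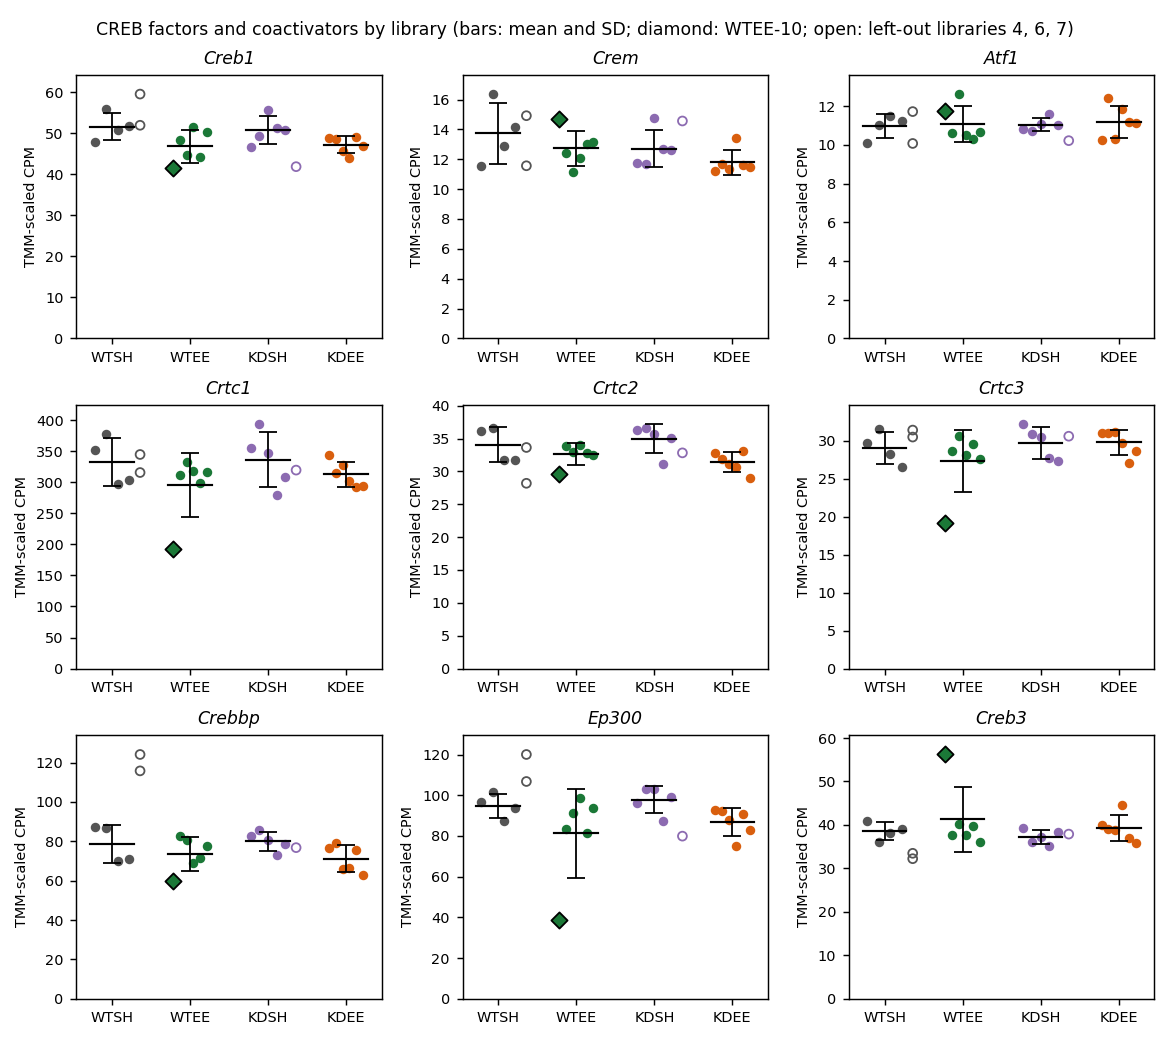
Level of each member in TMM-scaled CPM (vertical axis, from 0) by group (horizontal axis), with 1 filled point per kept library, black bars for the mean and SD, and a diamond for WTEE-10; open circles are the set-aside libraries on the scale of all 24. The groups overlap for all 9 genes, WTEE-10 lies apart for Ep300 (38.7 CPM), Crtc1 (192 CPM), Crtc3 (19.2 CPM) and Creb3 (56.2 CPM), and the set-aside WTSH libraries lie above the kept ones for Crebbp.

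Per kilobase of exon, the only scale on which levels of different genes are compared here, Crtc1 stood highest with 28.4 ± 3.67 CPM per kb (SD, n = 21 libraries). Creb3 followed with 16.5 ± 1.88 and Crtc2 with 8.08 ± 0.560 CPM per kb. Ep300 (6.26 ± 0.967) and Crebbp (5.57 ± 0.584) came next, then Atf1 (3.62 ± 0.224), Creb1 (3.55 ± 0.265), Crtc3 (2.93 ± 0.280) and Crem (2.15 ± 0.235 CPM per kb). Crtc1, the CRTC form best known from neurons, thus had the highest level of the coactivators and of the whole set. Atf1 and Creb1 could not be ordered, since Atf1 was the higher in 11 of 21 libraries. Ep300 exceeded Crebbp in 19 of 21 libraries with overlapping ranges, and the ranges also overlapped for Crtc1 and Creb3, for Crtc2 and Ep300, for Creb1 and Crtc3, and for Crtc3 and Crem. Lengths are unions of all annotated exons, from 2372 bases for Creb3 to 14273 bases for Ep300, so isoforms shorter than the union give levels that are too low.

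Creb1 encodes CREB itself and lies on chromosome 1 (GRCm38, chr1:64532645-64604548, plus strand), and Atf1, which encodes a factor that dimerizes with CREB and binds the same element, lies on chromosome 15 (chr15:100227819-100261244, plus strand). Because CREB can act on genes of its own family, the RefSeq promoters of the members (GRCm38.p6, 250 bases before to 50 bases after the annotated start) were searched for the full CRE, TGACGTCA, and for its shorter core TGACG on either strand, which every full CRE also contains. An entry was matched for 7 of the 9 measured members. Crem and Crtc2 had none, so nothing is said here of their promoters. Of these, 0 held the full CRE and 1, Atf1, held the shorter core, against 1.79% and 20.8% of 32851 promoters in the table. Creb5, whose level was not analysed here, has 2 entries, of which 1 (chr6:53287053-53287352, plus strand) held a full CRE and the other neither motif. Both promoters are shown to contrast the window with the shorter core (capitals), which starts at position -90 from the start of Atf1, with that of CREB itself, which has none. These letters are a description of the window and not a measured site.
Atf1 promoter, chr15:100227609-100227908, plus strand: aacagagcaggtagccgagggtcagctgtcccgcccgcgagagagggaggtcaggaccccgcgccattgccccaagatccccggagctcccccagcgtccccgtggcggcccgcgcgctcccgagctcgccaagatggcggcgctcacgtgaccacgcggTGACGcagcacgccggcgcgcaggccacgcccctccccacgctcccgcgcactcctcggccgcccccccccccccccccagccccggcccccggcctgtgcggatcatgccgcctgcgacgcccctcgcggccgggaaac
Creb1 promoter, chr1:64532554-64532853, plus strand: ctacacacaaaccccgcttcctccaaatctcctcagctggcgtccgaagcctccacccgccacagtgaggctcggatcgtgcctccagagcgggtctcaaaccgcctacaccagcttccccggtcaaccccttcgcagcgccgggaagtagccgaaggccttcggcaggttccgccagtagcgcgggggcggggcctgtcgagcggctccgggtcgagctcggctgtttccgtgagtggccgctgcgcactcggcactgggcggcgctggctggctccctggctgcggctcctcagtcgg

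Creb1 was lower on average in enriched than in standard housing. Its level was 47.9, 50.9, 51.7 and 55.8 CPM in the 4 WTSH libraries and ranged from 41.5 to 51.5 CPM in the 6 WTEE libraries, with a median of 46.6 CPM. In KD mice it was 46.6, 49.3, 50.9, 51.3 and 55.7 CPM in KDSH and between 44.0 and 49.0 CPM, with a median of 47.8 CPM, in KDEE. The highest values came from the standard-housed libraries WTSH-5 and KDSH-8, the lowest from the enriched libraries WTEE-10 and KDEE-15, and the groups overlapped in both genotypes.

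The log2 fold change of Creb1 with enrichment was -0.14 ± 0.064 in WT mice (SE; 95% interval -0.27 to -0.01; edgeR adjusted p = 0.651) and -0.10 ± 0.060 in KD mice (-0.23 to 0.02; adjusted p = 0.476). Averaged over genotypes it was -0.12 ± 0.044 (-0.21 to -0.03; edgeR adjusted p = 0.214). The effects in the genotypes differed by 0.04 ± 0.088 (interaction, 95% interval -0.15 to 0.22; edgeR adjusted p = 0.9999). For the mutation the interval was narrow around 0, from -0.10 to 0.09 on the log2 scale over both housings. Without WTEE-10 the difference in WT mice was -0.11 ± 0.058, and with the length trend described below as a covariate it was -0.06 ± 0.051. With ribosomal RNA gene models as a covariate it was -0.07 ± 0.064, and none of these had an unadjusted p under 0.05. The summed level of those gene models had a median of 620 CPM in WTSH and 4967 CPM in WTEE, and of 1718 CPM in KDSH and 1633 CPM in KDEE. In WT mice this covariate can therefore also take up some of the difference between the housings.

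Atf1 had the flattest profile of the set. It was 10.1, 11.02, 11.3 and 11.5 CPM in WTSH, 10.3 to 12.6 CPM in WTEE with a median of 10.7 CPM, 10.7, 10.8, 11.02, 11.1 and 11.6 CPM in KDSH, and 10.3 to 12.4 CPM in KDEE with a median of 11.1 CPM. The groups overlapped throughout and group means accounted for 1.23% of its variance in log2 CPM. Its log2 fold changes lay between 0.01 and 0.02 in the 6 comparisons other than the interaction, and averaged over genotypes the 95% interval for enrichment ran from -0.09 to 0.12.

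Crem encodes a relative of CREB that includes activator forms and the inducible repressor ICER, which a count over the whole gene cannot separate. The gene lies on chromosome 18 (chr18:3266048-3337748, minus strand), and 8.01% of its exon length overlaps the predicted gene Gm6225 on the other strand, where counting without strand cannot tell the genes apart. It was 11.6, 12.9, 14.1 and 16.4 CPM in WTSH and 11.2 to 14.7 CPM in WTEE with a median of 12.7 CPM. In KD mice it was 11.7, 11.8, 12.6, 12.7 and 14.8 CPM in KDSH and 11.2 to 13.4 CPM with a median of 11.5 CPM in KDEE.

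Crem had the most negative log2 fold change of the set for the mutation averaged over housing, -0.11 ± 0.065 (95% interval -0.25 to 0.02; edgeR adjusted p = 0.9996), with the same value of -0.11 in each housing. With enrichment it was also -0.11 in each genotype, and -0.11 ± 0.065 averaged (edgeR adjusted p = 0.344). The 3 highest libraries were WTSH-5, KDSH-8 and WTEE-10 and the groups overlapped. None of these differences passed the test.

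The CRTC coactivators came next in role. Crtc1 (chr8:70382355-70439579, minus strand) couples calcium and cAMP signals to CREB in neurons. It was 298, 304, 352 and 379 CPM in WTSH, and in WTEE it was 192 CPM in WTEE-10 and 299 to 332 CPM in the other 5 libraries. In KD mice it was 280, 309, 346, 355 and 393 CPM in KDSH and 293 to 344 CPM, with a median of 309 CPM, in KDEE. WTEE-10 was the lowest of the 21 libraries, well outside the range of the rest. The log2 fold change with enrichment was -0.17 ± 0.120 in WT mice (95% interval -0.42 to 0.08; edgeR adjusted p = 0.651) and -0.11 ± 0.113 in KD mice (-0.34 to 0.13; edgeR adjusted p = 0.681). Without WTEE-10 the value in WT mice was -0.07 ± 0.082.

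Crtc2 (chr3:90254163-90264125, plus strand), known best from the control of liver gluconeogenesis, was the member with the smallest spread within groups, an SD of 0.086 on the log2 scale. In KD mice it was 31.1, 35.0, 35.7, 36.3 and 36.6 CPM in KDSH and 28.9, 30.7, 31.1, 31.9, 32.7 and 33.1 CPM in KDEE. All but 1 of the KDSH libraries (KDSH-18) lay above every KDEE library. By sample number, KDSH was 35.7 to 36.6 CPM in samples 1, 3 and 8, and 31.1 and 35.0 CPM in samples 18 and 24. In WTSH, samples 2 and 5 were the high ones and samples 19 and 23 the low ones. KDEE samples 20 and 22 were the highest and the lowest of their group (33.1 and 28.9 CPM). The part of sample number in these levels was not tested. In WT mice it was 31.7, 31.8, 36.2 and 36.5 CPM in WTSH and 29.5 to 34.0 CPM in WTEE with a median of 32.9 CPM, and these groups overlapped widely.

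For enrichment in KD mice the log2 fold change of Crtc2 was -0.15 ± 0.056 (95% interval -0.27 to -0.04; edgeR adjusted p = 0.377), and in WT mice it was -0.06 ± 0.060 (-0.19 to 0.06; adjusted p = 0.706). Averaged over genotypes it was -0.11 ± 0.041 (edgeR adjusted p = 0.229). The effects in the genotypes were not shown to differ (interaction -0.09 ± 0.083, edgeR adjusted p = 0.9999). For Crtc2 in KD mice the fold change stayed negative and the unadjusted p under 0.05 in all 31 alternatives run, while the adjusted p lay between 0.114 and 0.628 over them. The alternatives share most of their libraries and are not independent checks. In the main fit 11.6% of all genes tested reached that unadjusted p.

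Crtc3 (chr7:80586627-80688877, minus strand), the third coactivator of the family, was 26.5, 28.2, 29.7 and 31.5 CPM in WTSH and 19.2 CPM in WTEE-10 against 27.6 to 30.5 CPM in the other WTEE libraries. In KDSH it was 27.2, 27.8, 30.4, 30.8 and 32.1 CPM, and in KDEE it was 27.0 to 31.1 CPM with a median of 30.3 CPM. Outside WTEE-10 the 20 libraries thus shared 1 range from 26.5 to 32.1 CPM. The log2 fold change with enrichment was -0.09 ± 0.094 in WT mice and 0.00 ± 0.088 in KD mice, and without WTEE-10 the first was -0.00 ± 0.058.

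CBP and p300 are large paralogous acetyltransferases that act for many factors besides CREB. Crebbp (chr16:4081328-4213997, minus strand) was 70.0, 71.0, 87.0 and 87.1 CPM in WTSH, and 59.9 to 82.7 CPM in WTEE with a median of 74.7 CPM. In KD mice it was 72.8, 78.8, 80.6, 82.8 and 85.6 CPM in KDSH and 63.0, 65.7, 66.5, 75.7, 76.5 and 79.3 CPM in KDEE. The WTSH libraries formed a low pair (samples 19 and 23) and a high pair (samples 2 and 5), 3 KDEE libraries lay below every KDSH library, and the groups overlapped. Samples 18 and 24 were also the lowest in KDSH, at 72.8 and 78.8 CPM.

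The log2 fold change of Crebbp with enrichment was -0.17 ± 0.085 in KD mice (95% interval -0.35 to 0.01; edgeR adjusted p = 0.442) and -0.10 ± 0.091 in WT mice (-0.28 to 0.09; adjusted p = 0.697). Averaged over genotypes it was -0.13 ± 0.062 (edgeR adjusted p = 0.256). Without WTEE-10 the averaged value was -0.10 ± 0.054, with an unadjusted p over 0.05.

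Ep300 (chr15:81585351-81652077, plus strand) varied most within groups, with an SD of 0.288 on the log2 scale against a median of 0.208 over all genes tested, and this rested on WTEE-10. The coefficient of variation was 26.9% in WTEE and 6.29, 6.72 and 7.96% in WTSH, KDSH and KDEE, and without WTEE-10 the SE of Ep300 for WTEE against WTSH (0.068) was below those of Crem (0.091), Crtc1 (0.082) and Crebbp (0.080). It was 87.2, 93.9, 96.6 and 101.5 CPM in WTSH and 87.2, 96.3, 99.2, 103 and 103 CPM in KDSH. In WTEE it was 38.7, 81.6, 83.2, 91.2, 93.9 and 98.8 CPM, and in KDEE it was 74.9, 82.9, 88.0, 90.8, 92.3 and 92.8 CPM. WTEE-10 and then KDEE-15 were the lowest of the 21 libraries, and 4 of the 5 KDSH libraries lay above every KDEE library.

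The log2 fold change of Ep300 with enrichment was -0.22 ± 0.156 in WT mice (95% interval -0.55 to 0.10; edgeR adjusted p = 0.652) and -0.17 ± 0.147 in KD mice (-0.48 to 0.14; edgeR adjusted p = 0.621). WTEE-10 widened both intervals, since all groups share 1 estimate of the spread. Without it the value in WT mice was -0.08 ± 0.068 and the value in KD mice -0.16 ± 0.062 (edgeR adjusted p = 0.149). With the length trend as a covariate both were nearer to 0, at -0.09 ± 0.151 and -0.01 ± 0.149.

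Creb3 (chr4:43562332-43567060, plus strand) encodes a factor anchored in the endoplasmic reticulum, which is released by cleavage and belongs to another branch of the family than the substrates of MSK1. Of its exon length, 20.8% overlaps Tln1 and Gba2 on the opposite strand, so its counts may hold reads of these genes or lose reads as ambiguous. It was 35.98, 38.2, 39.0 and 40.9 CPM in WTSH, 35.2, 36.04, 37.3, 38.4 and 39.4 CPM in KDSH and 35.9 to 44.6 CPM in KDEE. In WTEE 5 libraries lay between 36.1 and 40.2 CPM and WTEE-10 at 56.2 CPM, the highest of all 21, followed by KDEE-15. With enrichment the log2 fold change was 0.10 ± 0.094 in WT mice and 0.08 ± 0.088 in KD mice, with an edgeR adjusted p of 0.700 and 0.713, and without WTEE-10 the first was -0.01 ± 0.055.

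Across the set, 7 of 9 members lay below 0 for enrichment averaged over genotypes, with a median log2 fold change of -0.11 against 0.01 over all genes tested. At an unadjusted p under 0.05, 3 of 9 (Creb1, Crtc2 and Crebbp) were lower and 0 higher, where 18.9% of all genes reached that p. With ribosomal RNA gene models as a covariate 1 of 9 (Crtc2) did. The level of those gene models differs between the housings in WT mice, so this covariate can also take up some of the difference between them. Within genotypes the count was 1 of 9 for WTEE against WTSH (Creb1; background 6.55%) and 1 of 9 for KDEE against KDSH (Crtc2; background 11.6%). With 9 members, counts of 1 and 3 were not read as differing from these shares. The median member differed by -0.10 in WT and -0.11 in KD mice, and 8 of the 9 had the same sign in both, with Crtc3 near 0 in KD mice. Neither the 7 members below 0 nor the 8 with the same sign in both were set beside the share of all genes tested. Several members also vary together across libraries, so their signs are not independent. Sample number runs in part with housing, and its part in these differences was not tested.

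For the mutation 0 of 9 members reached an unadjusted p under 0.05 in edgeR, in standard housing (background 1%), in enriched housing (background 4.99%) or averaged over housing (background 1.9%), and DESeq2 also gave 0. The median of the members was 0.02, 0.01 and -0.01 on the log2 scale in these comparisons. The 95% intervals averaged over housing stayed within -0.25 and 0.30 for all 9 members, so a change past the threshold of 0.38 lay outside each of them. For the interaction 0 of 9 reached an unadjusted p under 0.05 by either tool (background 3.26%), and the intervals there were wider, up to 0.50 for Ep300.

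**Figure D2:**
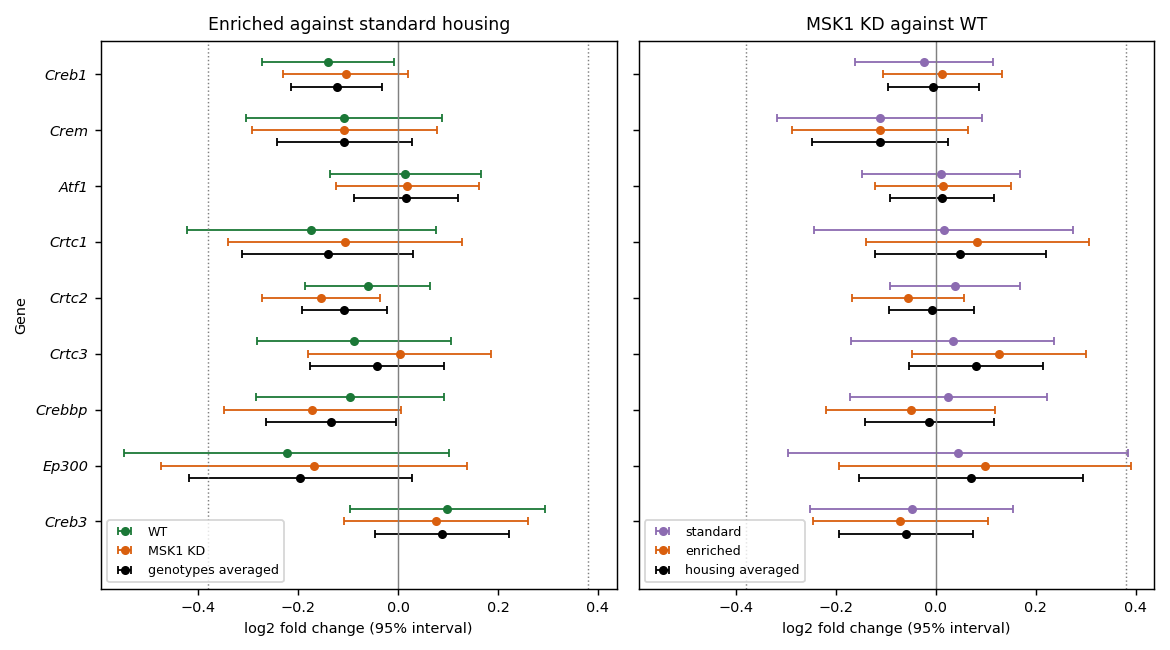
Log2 fold change with its 95% interval (horizontal axis) for each member (vertical axis), for enriched against standard housing (left) and MSK1 KD against WT (right), within each group of the other factor and averaged. Dotted lines mark the threshold of 0.38; most members lie left of 0 with enrichment, all averaged intervals for the mutation include 0, and the intervals of Ep300 and Crtc1 are the widest.

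The libraries differed in how counts were spread over short and long transcripts, and some members followed this trend. For each library the deviation of every gene from the median of the 21 libraries was correlated with its exon length, over 10603 genes with a mean log2 CPM over 3 and a unique name in the annotation (97.9% of such genes). Spearman's rho, a description across genes that are not independent, ranged from -0.663 in WTEE-10 and -0.647 in KDEE-15, where long transcripts were low, to 0.477 in KDSH-24. By group its median was 0.180 in WTSH, -0.161 in WTEE, 0.359 in KDSH and -0.129 in KDEE, so enriched libraries tended to the side on which long transcripts are low. How this trend arose was not tested.

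Within groups, Creb1 followed the trend most closely (Pearson r = 0.752, permutation p = 0.00014, adjusted over the 9 members 0.00126; Spearman rho = 0.745, permutation p = 0.00055; n = 21). Ep300 (r = 0.524, permutation p = 0.0155, adjusted 0.0464; rho = 0.382, permutation p = 0.0846) and Creb3 in the opposite direction (r = -0.671, permutation p = 0.00146, adjusted 0.00657; rho = -0.484, permutation p = 0.0318) did so with Pearson's r. With Spearman's rho the adjusted permutation p was 0.00495 for Creb1, 0.254 for Ep300 and 0.143 for Creb3. The 2 libraries farthest from the median of the trend, taken as deviations from group means, were KDEE-15 and KDEE-20. Without them r was 0.778 for Creb1, 0.551 for Ep300 and -0.647 for Creb3. WTEE-10, the lowest library for Ep300 and the highest for Creb3, stayed in, and r without it was not computed. The other 6 members had a Pearson r between -0.194 and 0.201, among them Crebbp and Crtc1 with exon lengths over 10000 bases. Creb1 and Ep300 are the longest members and Creb3 is the shortest. With the trend of each library as a covariate, 0 of 9 members reached an unadjusted p under 0.05 in edgeR for enrichment averaged over genotypes, and Creb1 stood at -0.04 ± 0.039. The trend differs between the housings, so this covariate also takes up some of the difference between them.

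**Figure D3:**
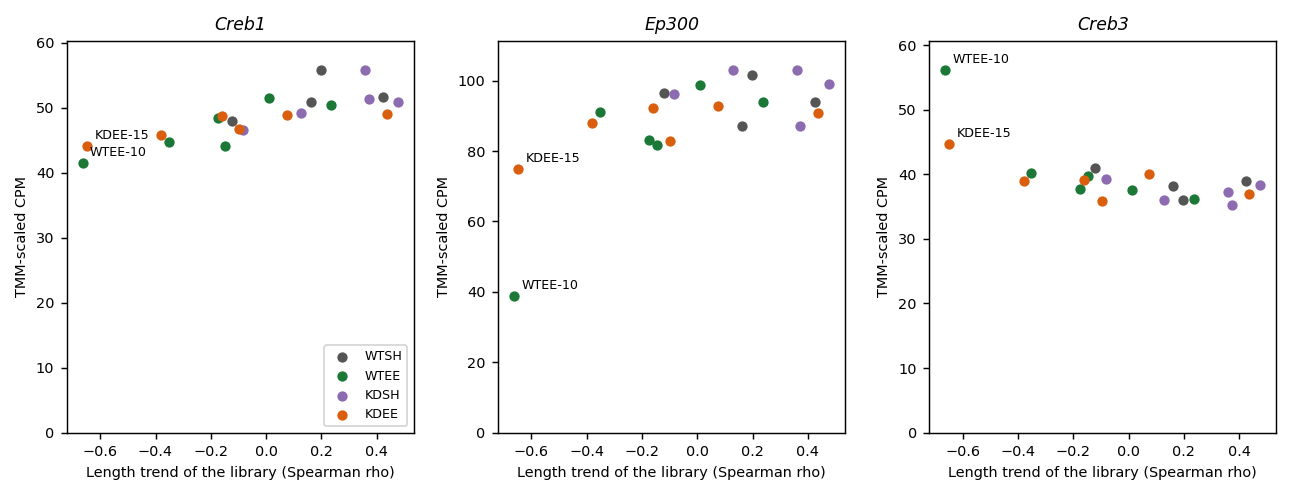
Level in TMM-scaled CPM (vertical axis) of Creb1, Ep300 and Creb3 against the length trend of each library (horizontal axis, Spearman's rho across 10603 genes), with 1 point per kept library coloured by group. WTEE-10 and KDEE-15 have the lowest trend, the lowest Ep300 and the highest Creb3 of the 21 libraries.

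WTEE-10 was set beside the other 5 WTEE libraries. Its log2 difference was -1.21 for Ep300, -0.72 for Crtc1, -0.59 for Crtc3, -0.35 for Crebbp, -0.20 for Creb1 and -0.17 for Crtc2, and 0.56 for Creb3, 0.25 for Crem and 0.11 for Atf1. Genes with over 10000 bases of exon had a median difference of -0.51 there and genes up to 2500 bases one of 0.55, so Creb3 lay at the median of its length class, and Ep300 below the median of its own but within its 5th to 95th percentile (-1.33 to 0.17). Ep300 was the 269th lowest of 10829 genes. In KDEE-15 the same 2 members stood out against the other 5 KDEE libraries, with -0.25 for Ep300 and 0.23 for Creb3, and Crem was 0.23 higher. WTEE-10 also had 5158 CPM on choroid plexus markers and 10683 CPM on ribosomal RNA gene models, and KDEE-15 had 85.3 and 6587 CPM. The highest kept values of these sums were 9462 CPM in KDEE-12 and 16838 CPM in WTSH-2, where Ep300 was 92.3 and 96.6 CPM. The part of either in the low Ep300 was not tested.

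Members were also compared with each other across libraries, as deviations from their group means in log2 CPM, with 36 pairs and adjustment over them. Of the 36 pairs, 11 had an adjusted permutation p under 0.05 by Pearson's r and 10 by Spearman's rho. The coactivators moved together: Crtc1 with Crtc3 (r = 0.918, permutation p = 9e-05, adjusted 0.00189; rho = 0.742, permutation p = 0.00074), Crtc2 with Crebbp (r = 0.833, permutation p = 0.00018, adjusted 0.00189; rho = 0.781, permutation p = 0.00069) and Crtc1 with Ep300 (r = 0.864, permutation p = 0.00017, adjusted 0.00189; rho = 0.804, permutation p = 0.00011). Without the 2 libraries farthest from the median of the first gene (WTEE-10 among them for each), r was 0.808, 0.794 and 0.622. With the length trend, r was 0.524 for Ep300, 0.147 for Crtc1, 0.134 for Crtc2, 0.037 for Crtc3 and 0.201 for Crebbp. Crtc1 was 346 to 393 CPM in KDSH samples 1, 3 and 8, and 280 and 309 CPM in samples 18 and 24. In WTSH it was 352 and 379 CPM in samples 2 and 5, and 298 and 304 CPM in samples 19 and 23. KDEE samples 20 and 22 were the lowest of their group (293 and 294 CPM), while WTEE-21 (317 CPM) lay within its group. Why the coactivators varied together was not tested.

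Creb1 went with Ep300 (r = 0.614, permutation p = 0.00209, adjusted 0.00940; rho = 0.614, permutation p = 0.0025) and against Creb3 (r = -0.692, permutation p = 0.00042, adjusted 0.00252; rho = -0.612, permutation p = 0.00373), the pattern of the length trend, and without its 2 farthest libraries r was 0.409 and -0.588. The factors Crem and Atf1 were in none of the 11 pairs. When WTEE-10 was left out, 7 pairs had an adjusted permutation p under 0.05: Crtc1 with Crtc2, Crtc3, Crebbp and Ep300, Crtc2 with Crebbp and with Ep300, and Creb1 against Creb3. Without KDEE-15 as well, Creb1 against Creb3 (r = -0.571, adjusted permutation p = 0.105) was no longer among the pairs. Creb1 with Crem (r = 0.706, adjusted permutation p = 0.0334) then was. Ep300 and Creb3, at r = -0.839 over 21 libraries (permutation p = 0.0222, adjusted 0.0665), stood at -0.303 without WTEE-10.

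**Figure D4:**
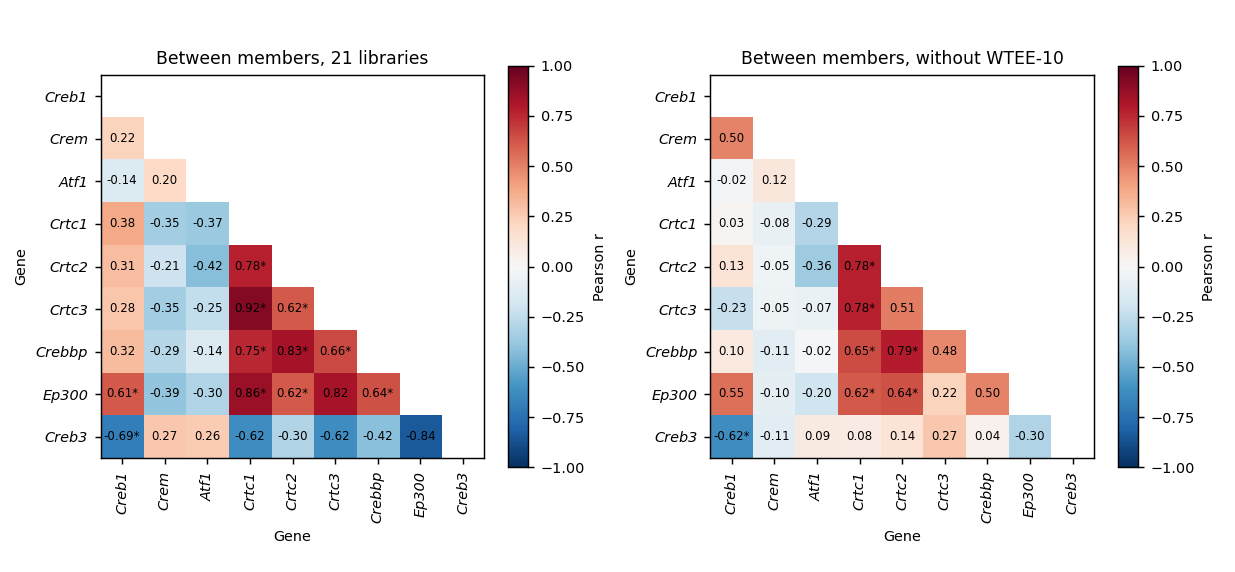
Pearson r between each pair of members (both axes list the genes), as deviations from group means, over 21 libraries (left) and without WTEE-10 (right); an asterisk marks a permutation p under 0.05 after adjustment over 36 pairs. The block of positive values among Crtc1, Crtc2, Crtc3, Crebbp and Ep300 remains in part on the right (6 positive pairs with an asterisk), while Creb3 with the coactivators is at -0.30 for Ep300 and above 0 for the other coactivators.

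Over all genes tested, those with a level most like that of Creb1 across the 21 libraries, members left out, were Klhl7 (Pearson r = 0.921, rho = 0.912), Mgat4a (r = 0.911, rho = 0.894) and Ahctf1 (r = 0.903, rho = 0.905). They were chosen for this likeness, so no test is given.

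In the set-aside libraries, measured on a scale of all 24, the acetyltransferases stood apart. Crebbp was 116 CPM in WTSH-4 and 124 CPM in WTSH-7, above the 58.4 to 84.7 CPM of the kept libraries, and Ep300 was 107 and 120 CPM, above the highest kept value of 99.9 CPM. Creb3 was below the kept range in the same pair (33.5 and 32.2 CPM against 34.4 CPM and more), Creb1 (59.6 CPM) and Crtc3 (31.4 CPM) were above it and Crtc2 (28.2 CPM) at its lower edge in WTSH-7, and all 9 members of KDSH-6 lay within it. Ribosomal RNA gene models took 223011, 233366 and 45248 CPM in WTSH-4, WTSH-7 and KDSH-6, against at most 16838 CPM in the kept libraries, and the length trend of these libraries was 0.498, 0.537 and -0.576.

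With all 24 libraries in the fit, 3 of 9 members had an unadjusted p under 0.05 for WTEE against WTSH, and 0 passed the adjusted threshold. Crebbp stood at -0.34 ± 0.118 (edgeR adjusted p = 0.246) where it had been -0.10, Ep300 at -0.32 ± 0.141 (adjusted p = 0.251) and Creb1 at -0.19 ± 0.065 (adjusted p = 0.246). The difference for Crebbp in WT mice thus rests on WTSH-4 and WTSH-7, the libraries with the most counts on ribosomal RNA gene models. The part of ribosomal RNA in it was not tested.

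The genes around CREB gave the following counts. MSK1 itself (Rps6ka5) was 23.3 ± 2.10 CPM in WTSH (SD, n = 4), 21.7 ± 3.95 in WTEE (n = 6), 24.1 ± 0.456 in KDSH (n = 5) and 23.7 ± 0.571 CPM in KDEE (n = 6), with 13.8 CPM in WTEE-10 as the lowest value. The KD mutation changes the protein, so this level does not check the genotype. The related kinase MSK2 (Rps6ka4) was 44.3 ± 2.44, 44.5 ± 3.32, 44.3 ± 2.80 and 44.8 ± 1.83 CPM in the same order. For KD against WT averaged over housing, the log2 fold change was 0.09 ± 0.072 for Rps6ka5 and 0.01 ± 0.041 for Rps6ka4, and neither passed the test (edgeR adjusted p = 0.9996 for both).

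Of 69 genes in 5 lists around CREB, 0 were called in any comparison. Among 14 kinases upstream of CREB, 3 were lower and 0 higher at an unadjusted p under 0.05 for enrichment averaged over genotypes, where 18.9% of all genes reached that p. Mapk14 (p38 alpha, which activates MSK1) had the smallest unadjusted p there and in KDEE against KDSH, with -0.12 ± 0.031 (edgeR adjusted p = 0.179) and -0.16 ± 0.043 (adjusted p = 0.338). Of 8 regulators of the CRTC proteins (SIK and MARK kinases, LKB1 and calcineurin subunits), 0 reached that p in any of the 7 comparisons. Of 14 other CREB and ATF factors 2 were higher and 1 lower, and of 11 other acetyltransferases and deacetylases 1 was lower, for enrichment averaged over genotypes, against the same background of 18.9%. None of these counts was read as differing from it. Kat2b, an acetyltransferase, had the smallest unadjusted p of the lists for the interaction, with 0.30 ± 0.181 (edgeR adjusted p = 0.9999).

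Among 22 activity-regulated CREB targets, 5 were lower and 0 higher in KD than in WT mice averaged over housing at an unadjusted p under 0.05, where 1.9% of all genes reached that p, and none passed the adjusted threshold. They were Fos (-0.42 ± 0.198), Gadd45b (-0.30 ± 0.091), Dusp1 (-0.29 ± 0.133), Bdnf (-0.15 ± 0.056) and Scg2 (-0.12 ± 0.042), each with an edgeR adjusted p of 0.9996, of which Fos, Dusp1 and Scg2 are named after their values were seen. The median of the 22 was -0.09 against 0.00 over all genes tested. The list was chosen with earlier results of these data known, and how far its genes vary together between mice was not tested. The count of 5 is therefore only a description beside the share of 1.9%. Gadd45b, a stress- and activity-induced gene of DNA demethylation, had the smallest unadjusted p of the lists here. It was 13.1 ± 2.35 CPM in WTSH (SD, n = 4), 14.4 ± 1.75 in WTEE (n = 6), 11.2 ± 1.77 in KDSH (n = 5) and 11.03 ± 1.43 CPM in KDEE (n = 6), and for KDEE against WTEE it stood at -0.38 ± 0.118 (edgeR adjusted p = 0.361).

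The count of 5 lower targets was 5 by DESeq2 and without WTEE-10, 4 with all 24 libraries or with the length trend as a covariate, 3 with ribosomal RNA gene models as a covariate or by DESeq2 on all 24 libraries, and between 3 and 6 when any 1 library was left out (3 without WTSH 2 or 23, WTEE 13 or 16, KDSH 18, or KDEE 9 or 12). Fos ranged from 11.9 to 48.1 CPM within WTSH. By housing, 3 targets were lower in KDEE than in WTEE (background 4.99%) and 0 in KDSH than in WTSH (background 1%), and the difference between these was not shown (0 of 22 for the interaction; edgeR). With enrichment averaged over genotypes 3 of 22 targets were lower and 1 higher, near the background of 18.9%, Nr4a3, an orphan nuclear receptor, having the smallest unadjusted p of the lists in WT mice (-0.29 ± 0.123, edgeR adjusted p = 0.651). For KDSH against WTSH that gene was Bdnf, the neurotrophin, with -0.14 ± 0.085 (edgeR adjusted p = 0.99995).

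**Figure D5:**
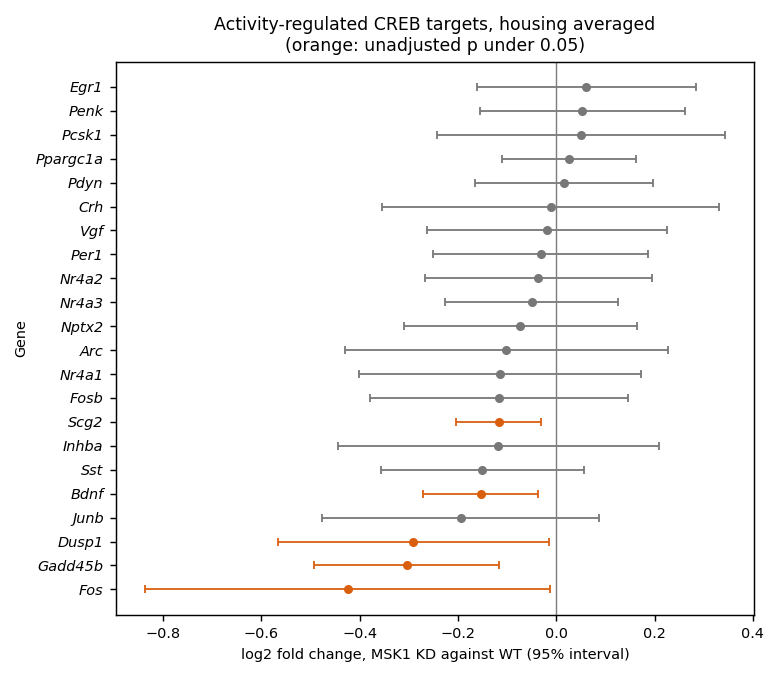
Log2 fold change of MSK1 KD against WT averaged over housing, with its 95% interval (horizontal axis), for 22 activity-regulated CREB targets (vertical axis, ordered by value); orange marks an unadjusted p under 0.05. The 5 orange genes all lie below 0, and 5 of the 22 lie above 0.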

How the data were processed

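Poly(A) RNA of 24 hippocampi, 1 per mouse, was sequenced as read pairs. After a quality check (FastQC 0.11.3) and removal of adapters with Skewer, the authors mapped the pairs to GRCm38 (STAR 2.5) and counted unique alignments per gene, ignoring strand (HTSeq 0.6.1p1; versions from the submitters' processing notes). The deposited values are raw counts per gene symbol and library; the 5 summary lines of HTSeq were left out of library sizes. Pairs on no gene made 8.41 to 15.7% and ambiguous pairs 4.14 to 6.57% of the kept libraries, and up to 33.0% and 17.2% of those set aside. Duplicates cannot be told from molecules, so counting error is only part of the error.

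Groups came from the sample labels, and the 3 libraries to set aside came from the study. The test was edgeR's quasi-likelihood F test (edgeR 4.0.16, R 4.3.3) after TMM scaling and its default filter, with 4 groups in 1 model and Benjamini-Hochberg adjustment over 20187 genes; SE and 95% intervals derive from the F statistic and its degrees of freedom. Log2 CPM used a prior count of 2. Correlations used 100000 two-sided permutations within groups (scipy 1.17.1, numpy). Positions and exon unions came from GENCODE M21 of GRCm38. The tests were first checked on simulated data. Mice carry no number shared between groups, so nothing was paired. DESeq2 1.42.0, RLE size factors, other filters, a robust fit, all 24 libraries, only the groups compared, a covariate for ribosomal RNA gene models and each library left out were tried as alternatives, and DESeq2 on all 24 libraries, a length trend covariate and correlations without WTEE-10 were added after the data were seen.

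The members and lists were chosen with earlier results of these data known. Named genes are the members, Rps6ka5 and Rps6ka4, list genes called, the list gene with the smallest unadjusted p in each comparison, and the 3 genes most like Creb1.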

Additional observations from a re-analysis of the deposited data

Results flagged for a closer look

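In 6 of 36 combinations of a member and a group, the highest or lowest library was farther from the nearest other one than Dixon's 95% critical value allows, and chance alone flags about 1 in 20 groups. WTEE-10 gave 5 of the 6: it was the lowest of 6 WTEE libraries for Ep300 (38.7 CPM, next 81.6), Crtc1 (192 CPM, next 299), Crtc3 (19.2 CPM, next 27.6) and Crtc2 (29.5 CPM, next 32.6), and the highest for Creb3 (56.2 CPM, next 40.2). KDEE-15 was the highest of 6 KDEE libraries for Crem (13.4 CPM, next 11.7). These are the kept libraries in which long transcripts were lowest (a length trend of -0.663 and -0.647), and the part of that trend in these values was not tested.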

How the results depend on the processing

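No member was called under any of the 31 or 32 alternatives run for each comparison, and the smallest adjusted p of a member over them was 0.0545 (Crebbp, DESeq2 on 24 libraries). The count of members at an unadjusted p under 0.05 moved as follows. For WTEE against WTSH (1) it was 0 with only the groups compared, with either covariate, and 0 to 1 with 1 library left out (0 without WTSH 5, 19 or 23, WTEE 10, 13 or 17, or KDEE 14), and 3 over all 24 libraries by edgeR or DESeq2. For KDEE against KDSH (1) it was 4 with only the groups compared (Creb1, Crtc2, Crebbp and Ep300) and 1 to 3 with 1 library left out, 3 of them without WTEE-10 (Crtc2, Crebbp and Ep300) and 2 without KDSH 1 or 18 or KDEE 9, 12 or 20. For enrichment averaged over genotypes (3) it was 1 with the ribosomal RNA covariate, 0 with the length trend covariate, 5 by DESeq2 over 24 libraries and 1 to 3 with 1 library left out, 1 without WTSH-5. For the mutation averaged over housing (0) it was 0 to 1, 1 without WTSH-2 or KDSH-8. The other 3 comparisons stayed at 0. The 11 correlated pairs became 7 without WTEE-10, 7 when KDEE-15 was left out as well, and 10 to 12 under the rest. These sets of 7 differed: Creb1 with Creb3 was only in the first, and Creb1 with Crem only in the second. The cause of these moves was not tested. With 4 to 6 mice a group, averaged differences under about 0.1 on the log2 scale lay within most intervals. No paired analysis was possible because the groups share no replicate numbers.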
